A study of Mus musculus with 6 samples.

Results

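Basal5 was 1 of 8 basal clusters in tracheal epithelial cultures of mice. Among the clusters ranked, which leave out the rare ionocytes, it had the highest mean levels of *Cyp4a12a*, *Pax1*, *Gata3*, *Kcnj16* and *Fcgbp*. Its members were the cells that carried this cluster name in the authors' annotation, 1180 of 23871 cells, and 1174 of them formed 1 of the 24 finer clusters of the same annotation with no cell of another type in it. The cells of these libraries were grown from the tracheas of 3 *WT/WT* and 3 *MIS/MIS* mice of the C57BL/6 strain, each 12 weeks old, and were differentiated at air-liquid interface (ALI), where the upper face of the culture is exposed to air. *MIS/MIS* mice carry a missense change in both copies of *Dnaaf5*, which encodes an assembly factor of the dynein motors of cilia. The change was made in the germline with CRISPR-Cas9, so that all cells of these mice carry it, and the *WT/WT* mice were littermates without it. Droplet scRNA-Seq counted each transcript molecule by its unique molecular identifier (UMI). The *WT/WT* mice are called WT1, WT2 and WT3, and the *MIS/MIS* mice MT1301, MT1306 and MT1383.

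Basal cells are the stem cells of the tracheal epithelium. They rest on the basement membrane, contain the transcription factor p63 and the keratins 5 and 14, and give rise to secretory and multiciliated cells. GATA3 is a zinc finger transcription factor known from T cells, skin and mammary gland, and PAX1 is a paired box factor of the pharyngeal pouches, the thymus and the vertebral column. NKX2-1 is a homeobox factor that marks the respiratory part of the embryonic foregut and remains in most cells of the airway.

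The libraries held 100961835 to 153326568 UMIs in 2673 to 6710 cells each. The Basal5 cells were spread unevenly over the mice, with 262 in WT1, 0 in WT2, 36 in WT3, 35 in MT1301, 118 in MT1306 and 729 in MT1383, and WT1 and MT1383 therefore weigh most in any value over pooled cells. For this reason the UMIs were summed per mouse and cluster and given as CPM (each sum rescaled to 1 common total of UMIs), and means were taken over the 5 mice with Basal5 cells. The sums held between 935139 UMIs in MT1301 and 14843442 in MT1383. The median Basal5 cell had 22738.5 UMIs, and 14.1% of its UMIs came from mitochondrial genes, the second highest share of the 16 clusters. In each of the 5 mice this mitochondrial share was higher in Basal5 than in the other basal cells (10.4% to 16.5% against 9.02% to 10.99%), and its part in the levels below was not tested. Of the barcodes, 67 occurred in more than 1 mouse, and 7 Basal5 cells carried one of them. No doublet caller was run. The study's methods treat cells with more than 7500 genes as potential doublets to be removed, yet 655 such cells were still in the deposited table, 8 of them in Basal5.

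*Cyp4a12a*, which encodes a cytochrome P450 that hydroxylates fatty acids, was the gene that set Basal5 apart most by fold. Its level in Basal5 was 342.5 CPM in WT1, 43.5 in WT3, 59.9 in MT1301, 104.9 in MT1306 and 167.3 in MT1383 (mean 143.6 ± 121, SD, n = 5 mice). The other 7 basal clusters had a mean of 4.85 CPM, so that the ratio, with 1 CPM added to both values, was 24.7. The next cluster was Multiciliated1 at 25.3 CPM, and there too the value of WT1 (83.1 CPM) was the highest of the mice. The clusters were made by the authors from the levels of these same genes. All levels that compare Basal5 with other clusters are therefore descriptions without a test. *Cyp4a12a* lies on chromosome 4 from 115299046 to 115332815 on the plus strand of GRCm38. Its near-identical neighbour *Cyp4a12b* was at 188.8 CPM in Basal5 and 43.2 in the other basal clusters, and the division of UMIs between these paralogs is uncertain. *Cyp4a12a* is known for high levels in the kidney of male mice.

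*Gata3* was the most even of the 5 markers. Its level was 46.9 CPM in WT1, 46.2 in WT3, 82.3 in MT1301, 61.3 in MT1306 and 57.5 in MT1383 (mean 58.8 ± 14.7, SD, n = 5 mice). The other basal clusters had a mean of 5.72 CPM and the next cluster, Basal8, 11.3 CPM, with 35.0 CPM in the Basal8 cells of WT1. *Pax1* was the only marker not detected in every mouse. It was at 37.4 CPM in WT1, 10.7 in MT1301, 13.1 in MT1306 and 31.0 in MT1383, whereas the 36 cells of WT3 held no UMI of it, which allows up to 2.01 CPM. The mean was 18.4 ± 15.4 CPM, against 1.68 in the other basal clusters and 4.59 in Basal7, the next cluster. In WT1, which had the highest *Pax1* level in Basal5, *Pax1* was also at 21.6 CPM in Basal7 and 9.38 CPM in Basal8. Basal5 of WT3 was therefore a *Gata3* cluster without detected *Pax1*, and the name of the cluster holds for both factors in 4 of 5 mice.

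The promoters of both factor genes are shown because their levels name the cluster, and those of *Kcnj16* and *Acsm3* because they hold a GATA-type sequence. Each runs over the 250 bases before the annotated RefSeq start on GRCm38.p6 and is written 5′ to 3′ on the strand of the gene, with AGATAA or TGATAA on either strand in capitals.
*Gata3* (chr2:9878601-9878850, minus strand): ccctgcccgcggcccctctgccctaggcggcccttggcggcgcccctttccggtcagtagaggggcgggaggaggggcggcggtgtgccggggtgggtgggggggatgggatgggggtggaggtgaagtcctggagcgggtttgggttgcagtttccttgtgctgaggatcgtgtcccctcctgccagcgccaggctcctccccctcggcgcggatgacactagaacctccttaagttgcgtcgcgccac
*Pax1* (chr2:147364744-147364993, plus strand): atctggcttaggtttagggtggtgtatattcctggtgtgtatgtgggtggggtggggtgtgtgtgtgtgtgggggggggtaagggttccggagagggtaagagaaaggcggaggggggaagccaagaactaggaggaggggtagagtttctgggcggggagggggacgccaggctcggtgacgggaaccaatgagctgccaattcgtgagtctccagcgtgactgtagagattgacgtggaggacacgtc
*Kcnj16* (chr11:111019335-111019584, plus strand): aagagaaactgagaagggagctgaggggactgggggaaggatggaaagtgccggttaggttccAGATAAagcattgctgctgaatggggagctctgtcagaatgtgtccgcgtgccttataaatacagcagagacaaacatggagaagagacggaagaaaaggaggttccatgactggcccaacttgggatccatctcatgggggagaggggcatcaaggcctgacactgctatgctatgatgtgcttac
*Acsm3* (chr7:119760673-119760922, plus strand): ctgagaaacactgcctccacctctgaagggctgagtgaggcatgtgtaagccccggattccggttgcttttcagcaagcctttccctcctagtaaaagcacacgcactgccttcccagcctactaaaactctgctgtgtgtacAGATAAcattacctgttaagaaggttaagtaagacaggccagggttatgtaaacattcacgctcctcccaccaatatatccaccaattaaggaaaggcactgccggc
No such sequence stood in the window of *Gata3*, *Pax1* or *Fcgbp*. *Kcnj16* has 4 annotated starts, and 1 of their 4 windows held it. Among the other genes higher in Basal5, *Ces1h* and *Unc5b* also had such a sequence in their windows, which are not shown. Of the 32851 promoters used, for which 1 chromosome of the reference table was left out, 16.6% held a match. A match is a description of the letters in the window and not a binding site. *Cyp4a12a* had no entry in the table.

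*Kcnj16* encodes an inward rectifier potassium channel and *Fcgbp* a mucin-like protein that binds the Fc part of IgG. *Kcnj16* was at 31.2 CPM in WT1, 17.4 in WT3, 8.55 in MT1301, 9.29 in MT1306 and 12.2 in MT1383, against 0.48 CPM in the other basal clusters and 2.40 in Multiciliated1. It was low in all other clusters compared, which did not include the 28 ionocytes. *Fcgbp* was at 112 CPM in WT1, 68.9 in WT3, 64.2 in MT1301, 52.0 in MT1306 and 70.9 in MT1383, against 6.80 in the other basal clusters. Its next cluster, Basal8, had 25.7 CPM, so that *Fcgbp* was the marker that Basal5 shared most with another cluster. In the plot of the 5 markers, Basal5 had the highest mean of all clusters shown for each of them.

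**Figure D1:**
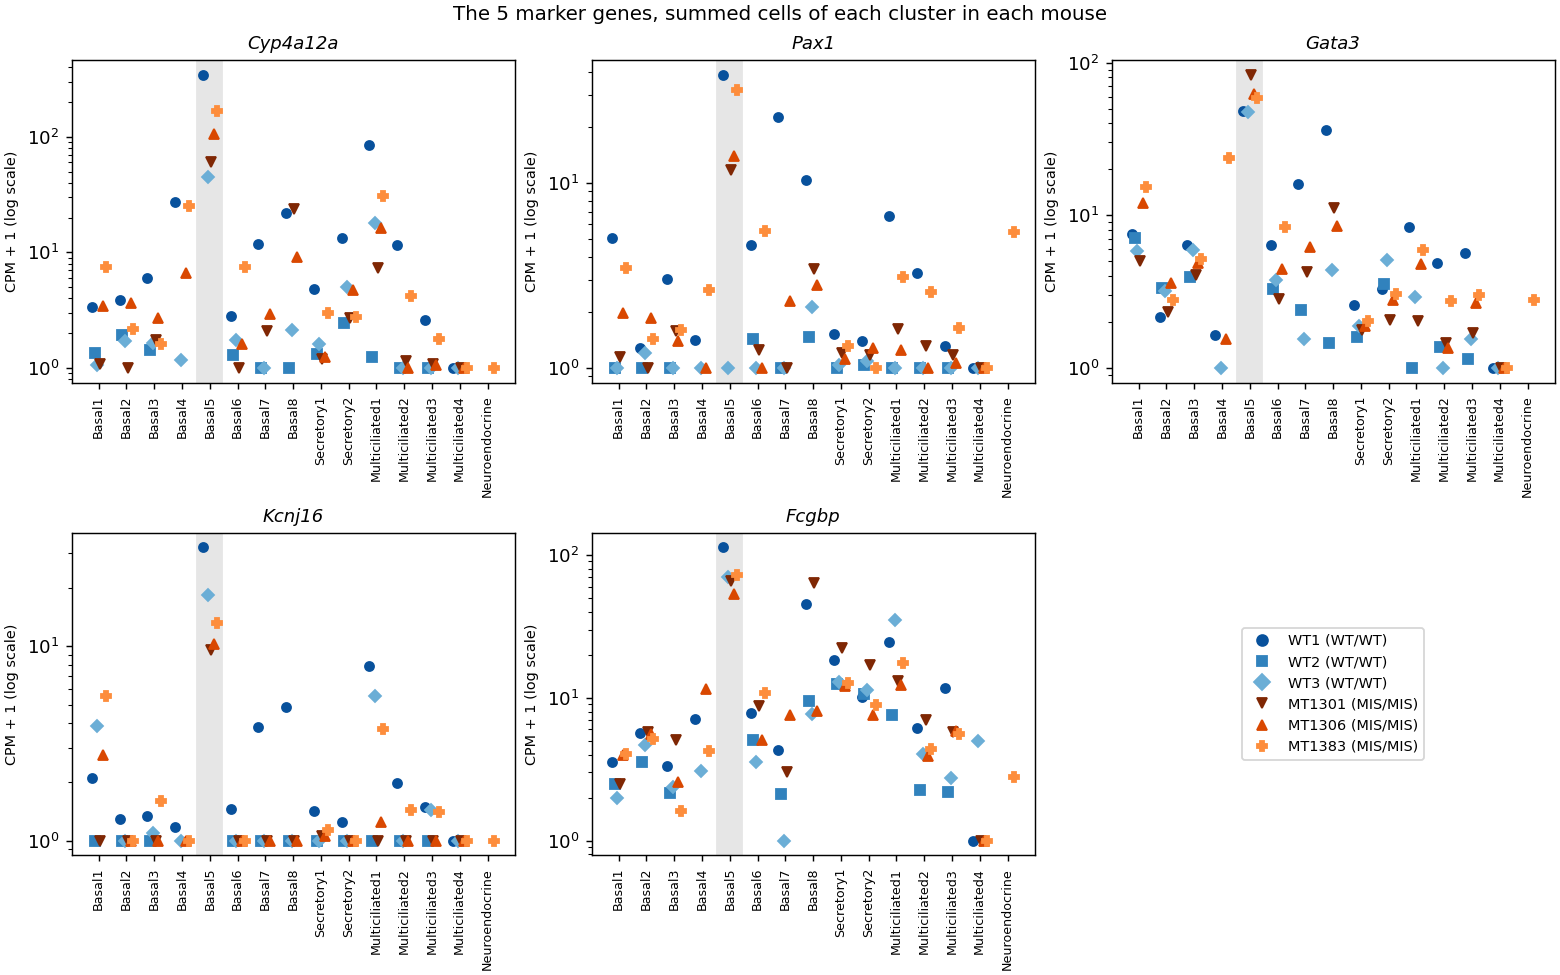
Level of each marker gene (CPM + 1, log scale) in each cluster, 1 point for each mouse with at least 20 cells of the cluster, with WT/WT mice in blue and MIS/MIS mice in red to orange and Basal5 shaded. *Gata3* in Basal5 lies between 46.2 and 82.3 CPM, whereas *Pax1* ranges from 0 in WT3 to 37.4 CPM in WT1.

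The markers were also unevenly spread over single cells. After each cell had been thinned to 5000 UMIs, which left all 1180 cells in, *Cyp4a12a* had a UMI in 42.7% of Basal5 cells, *Gata3* in 22.0%, *Fcgbp* in 21.6%, *Pax1* in 10.8% and *Kcnj16* in 6.19%. These pooled shares rest mostly on WT1 and MT1383. Their order did not hold in each mouse, since *Cyp4a12a* had a UMI in 60.3% of the cells of WT1, 11.1% of WT3, 17.1% of MT1301, 22.0% of MT1306 and 42.5% of MT1383, and *Gata3* in 21.4%, 13.9%, 31.4%, 22.0% and 22.2%. At full depth, the pooled shares were 64.1%, 55.6%, 49.7%, 30.2% and 20.4%. The same thinning gave 0.147% of Multiciliated3 cells for *Cyp4a12a*, 0.553% for *Gata3*, 2.06% for *Fcgbp*, 0.0369% for *Pax1* and 0.111% for *Kcnj16*. Multiciliated3 holds mature multiciliated cells with a median of 26359.5 UMIs, and UMIs of these genes there may come from free RNA. At least 1 of the 5 markers was found in 64.6% of Basal5 cells and 5.81% of all other cells, and at least 2 of them in 27.7% and 0.32%. The Basal5 share with at least 1 ran from 36.1% in WT3 to 76.3% in WT1. Other clusters differed too, with 21.0% of Basal8 cells (35.0% in WT1 and 29.2% in MT1301) and 13.0% of Multiciliated1 cells. At least 2 markers were found in 3.71% of Basal8 and 2.35% of Multiciliated1 cells. Within the thinned Basal5 cells of WT1, 20.3% of those with *Cyp4a12a* and 5.77% of those without it had *Pax1*. In MT1383 these shares were 15.5% and 7.64%, and in MT1306 15.4% and 2.17%. In MT1301 they were 0% of 6 cells and 10.3% of the rest, the other way round, and WT3 had no *Pax1*. *Gata3* was found in 20.9% of the cells with *Cyp4a12a* and 22.1% of those without it in WT1, and in 22.9% and 21.7% in MT1383. In MT1306, where only 26 cells had *Cyp4a12a*, the shares for *Gata3* were 46.2% and 15.2%. Over the 79 combinations of cluster and mouse, which share their libraries, *Cyp4a12a* correlated across levels with *Gata3* at r = 0.77 and with *Pax1* at r = 0.74. The gene with the pattern most like *Cyp4a12a* was *Acsm3* (r = 0.82), which also had its highest mean in Basal5. The markers were picked as high in Basal5 and were low in most of the other 74 combinations. Medians there were 0.85 CPM of *Cyp4a12a* and 0.23 of *Pax1*. The Basal5 points therefore largely fix these r values, which give no support for expression in the same cells.

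With the markers included, 34 of 8239 genes were at least 2-fold above the mean of the other basal clusters in all 5 mice (0.413% of the genes compared). At least 2-fold below it were 200 genes (2.43%). The genes compared had at least 10 CPM in Basal5 or in that mean, and their median log2 ratio was -0.17. The 34 genes included 4 of the 5 markers, and *Pax1* missed the 2-fold limit in WT3 alone. Of the 34, 22 had a promoter among those used, and 4 of these held a GATA-type match at any listed start (18.2%). Of the 14522 genes of the count table with a promoter among those used, 13.3% held a match. Against each of the other 7 basal clusters taken alone, 5 genes were at least 2-fold higher in every mouse with cells of both, namely *Cyp4a12a*, *Kcnj16*, *Acsm3*, *Tmprss11e* and *Muc20*. *Cav1*, which encodes the coat protein of caveolae, was the 1 gene that was lower against each of them (1.61 against 52.5 CPM).

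Several of the genes higher in Basal5 encode metabolic enzymes or carriers, which are grouped here for reading and were not tested as a group. *Acsm3*, a mitochondrial medium-chain acyl-CoA synthetase, was at 34.8 CPM in WT1, 16.7 in WT3, 36.4 in MT1301, 11.05 in MT1306 and 24.3 in MT1383, against 2.08 in the other basal clusters. *Aspa*, an aspartoacylase, was at 89.3 ± 29.8 CPM and 3.89-fold above them, and *Slc25a48*, a mitochondrial carrier, at 45.6 ± 20.5 and 4.53-fold. *Ces1h* (a carboxylesterase), *Akr1c18* (a hydroxysteroid dehydrogenase that inactivates progesterone) and *Hsd17b2* (a dehydrogenase of sex steroids) had 124.4, 28.2 and 46.0 CPM, and *Hsd17b2* was higher still in Basal4 (75.7 CPM). Members of these families have close relatives, among which the counting may have divided UMIs. *Aldh3a1*, an aldehyde dehydrogenase, was at 1341 ± 394 CPM, and the squamous cluster Basal4 came next at 947.7 CPM. *Aldh2* was at 800.6 CPM and 2.67-fold above the other basal clusters. *Egln3*, an oxygen-dependent prolyl hydroxylase of HIF proteins, was at 69.0 ± 15.5 CPM and 3.38-fold above them.

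Other genes that led in Basal5 encode proteins of varied roles. *Pcolce*, which enhances the cleavage of procollagen, was at 532 CPM in WT1, 393 in WT3, 509 in MT1301, 350 in MT1306 and 508 in MT1383 and thus varied little between mice. The other basal clusters had 104.8 CPM of it. *Tgm2*, a transglutaminase that crosslinks proteins, was at 419.3 ± 56.3 CPM and 2.91-fold above them. *Tmprss11e*, a serine protease of the cell membrane, was at 30.2 ± 14.2 CPM and 8.05-fold above. *Unc5b*, a netrin receptor, was at 60.1 ± 18.2, and *Anxa10*, an annexin, at 66.4 ± 29.7 with its lowest value in MT1306 (17.1). *Igfbp2*, a binding protein of insulin-like growth factors, was uneven, with 1.33 CPM in WT1 and 1.28 in MT1383 but 24.1 in WT3, 34.2 in MT1301 and 32.1 in MT1306. *Sprr1a*, a protein of the cornified envelope, followed the same order of mice and ran from 88.0 CPM in MT1383 to 758.2 in MT1301. The 2 mice with most Basal5 cells were thus the lowest for both genes. The remaining genes that led over the next cluster, which were *Ripply3*, *Tnfrsf4*, *Capn13*, *AW112010*, *Nlrp10* and *Ndrg2*, had 11.04 to 80.2 CPM and were 2.81 to 5.48 times the other basal clusters.

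**Figure D2:**
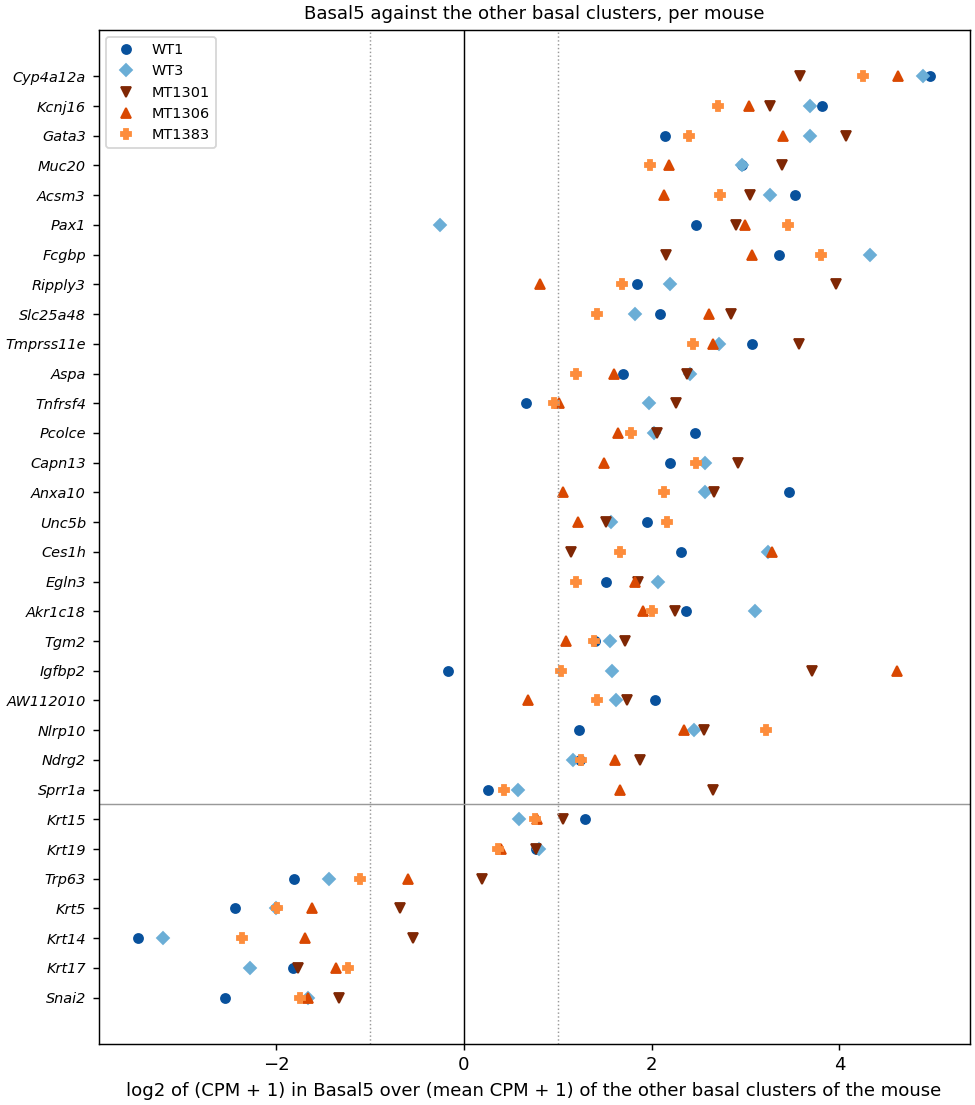
Log2 ratio of the level in Basal5 to the mean of the other basal clusters in the same mouse, with 1 CPM added to both, for the 25 genes that led over the next cluster (above the line) and 7 genes of basal identity (below it). Each symbol is 1 mouse, and dotted lines mark a 2-fold difference. *Pax1* in WT3 and *Igfbp2* in WT1 lie left of 0, and *Krt14* lies left of 0 in all 5 mice.

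The mucus layer genes were the list with the highest median apart from the markers. Of its 9 members that were compared, 2 were at least 2-fold higher in all mice and 0 lower (0.413% and 2.43% of all genes), with a median log2 ratio of 1.32 against -0.17 over all genes. The 2 were *Fcgbp*, itself a marker of the cluster, and *Muc20*, a mucin of the cell membrane at 15.4 ± 6.29 CPM against 1.38. Both reached the floor of 10 CPM only through their level in Basal5, so the counts and the median are not read as a property of the list. Summed over its 22 genes in the count table, the list was lower in Basal5 (1114 against 1519 CPM). The membrane mucins *Muc4* (129.5 against 49.1 CPM) and *Muc16* (55.7 against 20.4) were higher on average but did not reach 2-fold in each mouse. *Muc5b*, a secreted gel-forming mucin, was near 0 (0.013 CPM). Against the same 0.413% of all genes, 2 of 14 ion transport genes were higher, *Kcnj16* and *Clca2*, a regulator of chloride conductance (26.1 against 5.82 CPM). Among Cyp4 genes, 2 of 6 were higher, *Cyp4a12a* and *Cyp4a12b*, whereas *Cyp4b1* was at 12.8 against 78.6 CPM. Of the cytokines, *Csf3*, which encodes the granulocyte growth factor G-CSF, was the 1 of 8 that was higher (14.6 against 2.54 CPM). *Kcnj16*, *Clca2*, *Cyp4a12a* and *Csf3* also reached the floor only through Basal5, and these counts are descriptions.

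Of 116 transcription factor genes compared, *Gata3* was the only one at least 2-fold higher in all 5 mice, and 5 were at least 2-fold lower, where the shares over all genes were 0.413% and 2.43%. The counts are few and are not read as a property of transcription factors. *Foxe1*, a forkhead factor of the thyroid and the pharynx, came next by fold after *Gata3* and *Pax1*. It was at 51.9 CPM in WT1, 8.03 in WT3, 38.5 in MT1301, 33.4 in MT1306 and 55.2 in MT1383, against 10.4 in the other basal clusters and 25.4 in Basal4. WT3 was again the lowest mouse. The homeobox gene *Meis2* (228 ± 58.5 CPM) was 2.40-fold above the other basal clusters, *Sox6* (48.3 ± 11.5) 1.85-fold, the pharyngeal factor gene *Tbx1* (37.5 ± 8.92) 1.77-fold, and *Elf3* (312 ± 47.8), a factor of epithelial differentiation, 1.69-fold. *Mycl*, *Id4* and *Meis1* were 1.49 to 1.84 times the other basal clusters. Of these 7, *Meis2*, *Mycl*, *Tbx1*, *Id4* and *Meis1* were higher still in another cluster. As a list, PAX and pharyngeal pouch factors were not higher in Basal5. Of 10 compared, 0 were at least 2-fold higher or lower in all mice, and 4 had a median log2 ratio above 0 (list median -0.086). Of 7 GATA factors and partners, *Gata3* alone was higher and 0 were lower (list median -0.17).

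*Nkx2-1* was among the 5 that were lower. Basal5 had 1.80 CPM in WT1, 7.36 in WT3, 6.42 in MT1301, 6.53 in MT1306 and 2.83 in MT1383. The mean over the other basal clusters of the same mice, each cluster weighed equally, was 48.7, 56.9, 74.7, 59.4 and 64.8 CPM. The ranges of Basal5 and of this mean did not overlap. Basal4 was the other cluster as low as Basal5, with 0.813 to 3.25 CPM. All remaining clusters, secretory and multiciliated ones included, had 24.9 to 108.8 CPM, with a median of 66.7 over 70 combinations of cluster and mouse. At 5000 UMIs per cell, 1.27% of Basal5 cells and 0.513% of Basal4 cells had an *Nkx2-1* UMI, against 36.0% in Basal2, 24.9% in Basal8, 31.9% in Secretory2 and 25.6% in Multiciliated3. At full depth 65 of 1180 Basal5 cells had one (5.51%, 95% Wilson interval 4.35% to 6.96%, which covers counting error only). UMIs of free RNA cannot be told apart from UMIs of the cell in this share. *Irx1*, a homeobox gene of the developing lung, went the same way, with 1.07 to 5.35 CPM in the 5 mice against 34.5 on average in the other basal clusters, and *Irx2* had 12.0 ± 7.92 against 52.0. The other factor genes that were lower were *Sox11* (0.90 against 34.3 CPM) and *Snai2* (8.17 against 27.0). The mean of *Sox11* rested mostly on Basal1 (226.2 CPM). Basal2 (1.41), Basal4 (0.77), Basal7 (0.29) and Basal8 (1.00) were about as low as Basal5. *Snai2* was lower still in Basal8 (1.27 CPM). *Sox2*, a factor of the proximal airway and the esophagus, was at 119.8 to 184.7 CPM in Basal5 and within the range of the other basal clusters (70.3 to 203.3). *Pax9*, a relative of *Pax1*, was at 65.1 CPM against 78.7.

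**Figure D3:**
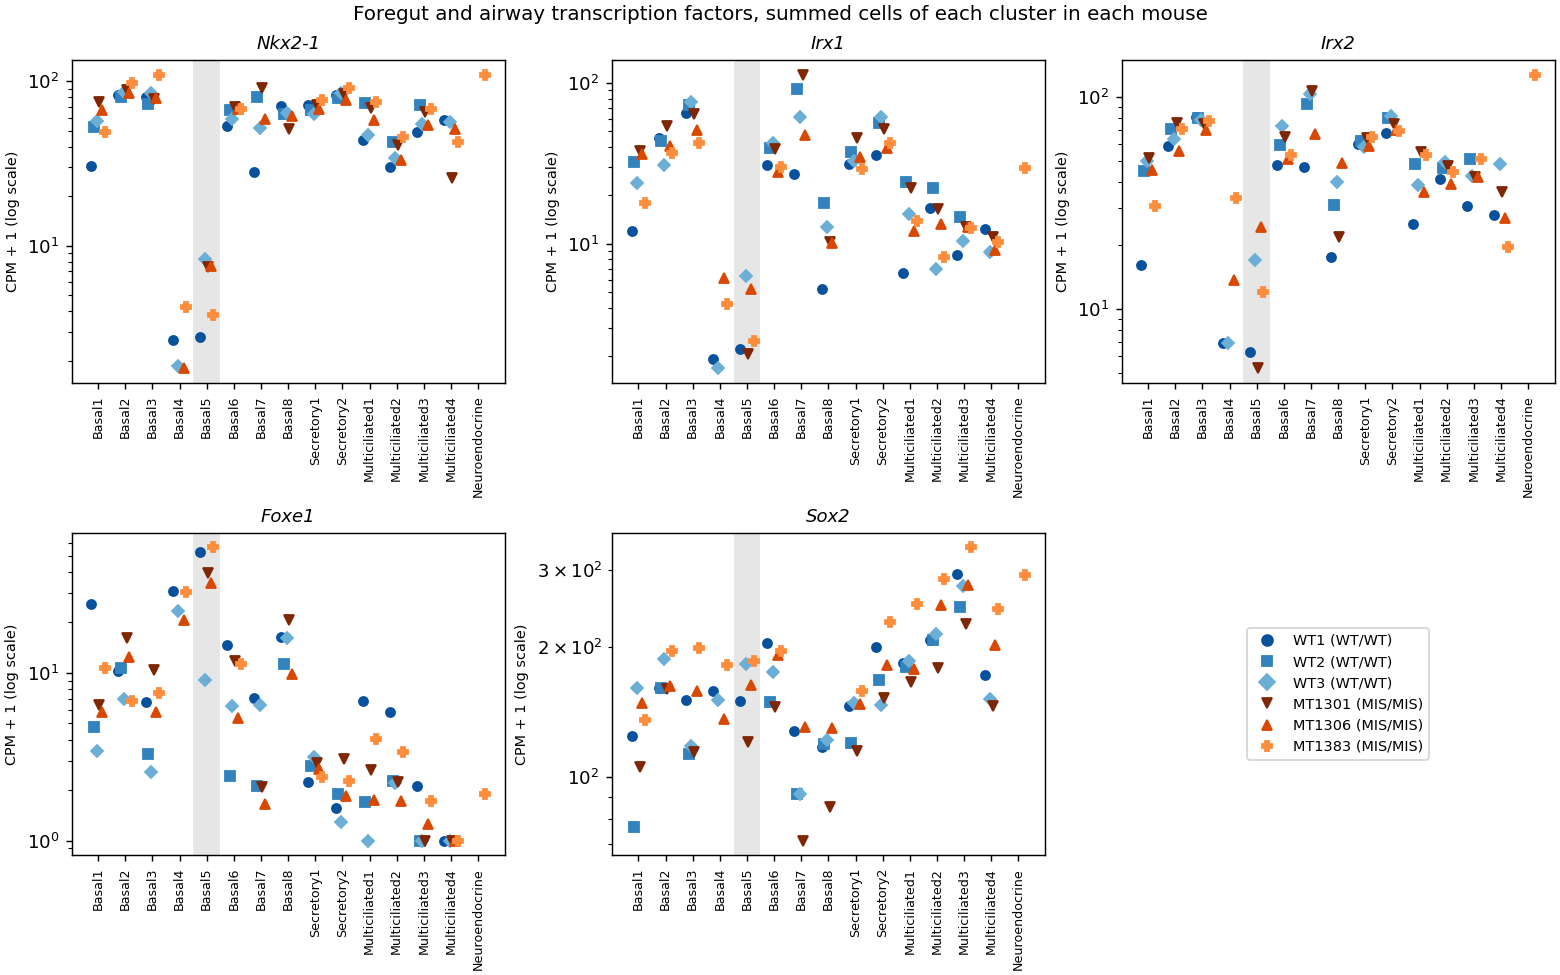
Level of 5 transcription factor genes (CPM + 1, log scale) in each cluster, 1 point for each mouse with at least 20 cells of the cluster, Basal5 shaded. *Nkx2-1* lies between 1.80 and 7.36 CPM in Basal5 and is low elsewhere in Basal4 alone, and *Foxe1* has its highest mean in Basal5.

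The name basal was borne out in part. Of the 15 basal marker genes, 0 were at least 2-fold higher and 2 at least 2-fold lower in all mice (*Krt17* and *Snai2*), with a median log2 ratio of -0.96. *Krt15*, a keratin of basal cells, was higher in Basal5 than in any other cluster on average, with 8089 CPM in WT1, 6538 in WT3, 7090 in MT1301, 7535 in MT1306 and 6357 in MT1383 against 3964 in the other basal clusters. The simple epithelial keratin gene *Krt19* was also highest in Basal5 (2338 to 3050 CPM). The defining keratins were low. *Krt5* was at 80.0 to 235.3 CPM in Basal5 and 518.6 on average in the other basal clusters, and *Krt14* at 60.4 to 365.7 against 755.8. *Trp63*, which encodes p63, was at 13.9 to 51.3 CPM against 56.2. These levels still lay above those of multiciliated cells, since Multiciliated3 had 3.62 to 22.8 CPM of *Krt5* and 0.825 to 1.25 of *Trp63*. Basal8, which also carries the name basal, had less of both than Basal5 on average, with 25.2 to 93.1 CPM of *Krt5* and 1.12 to 7.13 of *Trp63*. *Trp63* had a UMI in 14.4% of the thinned Basal5 cells, in 18.9% of Basal2, 1.75% of Basal8 and 0.590% of Multiciliated3 cells.

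The hillock is a squamous structure of the airway marked by keratins 4 and 13. Of 7 hillock genes compared, 0 were at least 2-fold higher and 0 lower in all mice, with a median log2 ratio of 0.099. *Krt4* was at 1593 CPM, second to Basal4 (3967) among the basal clusters. *Krt13* was at 114.9 CPM, below Basal4 (7144), Basal1 (208.8) and Basal6 (192.8). Of the secretory genes, *Cyp2f2* was at 7525 CPM and *Lypd2* at 456.2 against 139.5 in the other basal clusters, whereas *Scgb1a1*, *Scgb3a1* and *Scgb3a2* were at least 2-fold lower in all mice (3 of 8 genes compared). *Reg3g*, a secreted antimicrobial lectin, ranged from 2090 CPM in MT1306 to 13226 in WT3. Across 11561 genes, the levels of Basal5 correlated most with those of Basal8 (r = 0.975) and Basal2 (r = 0.970), followed by Secretory2 and Basal4 (r = 0.957 for both), in clusters that share libraries.

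Cell division genes were near 0 in Basal5, as in most basal clusters. All 5 cycling markers were at least 2-fold below the mean of the other basal clusters in every mouse. Their summed level was 2.01 to 5.46 CPM against 143.9 to 284.8 for that mean. That mean rested on 1 cluster, since *Top2a* was at 390.2 CPM in Basal6 but at 0.765 in Basal8, 0.827 in Basal2 and 1.29 in Basal4. *Top2a*, *Mki67* and *Pclaf* had at most 0.526 CPM on average. *Spp1*, *Fn1* and *Sparc*, which encode matrix proteins, were at 0.912, 0.530 and 0.618 CPM against means of 102.8, 77.3 and 57.6 in the other basal clusters. The highest of these clusters was Basal1, with 526.2 CPM of *Fn1*, whereas Basal8 (0.168) and Basal4 (0.9001) were about as low as Basal5. *Dclk1* (1.03 against 53.7 CPM) and *Cd74* (1.21 against 35.7), the invariant chain of MHC class II, were also low. Among signalling lists, 4 of 10 BMP and TGF beta genes were lower (*Bmp3*, *Fst*, *Smad7* and *Inhba*) and 0 higher, with a median log2 ratio of -1.24, where 2.43% of all genes were lower and their median was -0.17. Of the Wnt genes, 3 of 11 were lower (*Wnt5a*, *Lgr6* and *Rspo1*), again with 0 higher. The Notch ligand gene *Jag1* was at 13.7 against 31.7 CPM, and the growth factor genes *Nrg1* and *Fgf1* at 13.6 against 49.5 and 14.2 against 45.8. Only *Cav1* was at least 2-fold lower in every mouse against each other basal cluster taken alone. The genes of this paragraph thus passed the 2-fold limit against the mean of these clusters but not against each cluster.

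Markers of most other cell types that a tracheal culture could hold were at low levels. The exceptions were the goblet genes and the multiciliated genes. The goblet genes summed to 24.9 to 206.1 CPM in Basal5, nearly all from *Agr2*, against 27.0 to 69.3 in the mean of the other basal clusters. The multiciliated genes had 26.4 to 48.5 against 22.6 to 55.8. The other sums cover only the genes of each list that were in the count table and run from the lowest to the highest mouse. They were 0.669 to 3.30 CPM for 5 ionocyte genes, 0 to 0.674 for 5 neuroendocrine genes and 0 to 0.669 for 4 myoepithelial genes. For lists in the count table only in part, they were 1.07 to 2.47 for 5 of 6 tuft cell genes and 0 to 0.569 for 2 of 3 endothelial genes. They were 0 to 1.07 for 4 of 5 thyroid genes and 0 to 7.53 for 2 of 4 parathyroid genes. For 6 of 7 thymic epithelial genes the sum was 10.0 to 14.1 CPM, against 14.8 to 16.8 in the mean of the other basal clusters. Fibroblast genes summed to 5.21 to 31.5 CPM, nearly all from *Dcn*. Immune genes summed to 29.9 to 146.9 CPM against 54.6 to 1749 in the mean of the other basal clusters.

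Basal5 cells made up 9.22% of the cells of WT1, 0 of 4844 cells of WT2, which allows a share of up to 0.0619%, and 1.30% of WT3. They made up 0.868% of MT1301, 4.41% of MT1306 and 10.9% of MT1383. The mice of each genotype spanned nearly the whole range. The mean was 3.51% ± 4.99 (SD, n = 3 mice) in *WT/WT* and 5.38% ± 5.07 (SD, n = 3) in *MIS/MIS* cultures. A two-sided permutation test, enumerated exactly, gave p = 0.6 (adjusted p = 0.6 over 2 shares), and without MT1383 the difference turned to -0.865 percentage points. As a share of basal cells, the means were 5.55% ± 7.65 and 12.4% ± 12.1 (same exact test, p = 0.6). With 3 mice against 3, the smallest p possible is 0.1. Outside Basal5, the cells of WT2 had the lowest *Cyp4a12a* level of the mice (0.549 CPM, against 1.54 to 16.8 in the others). They held 5 UMIs of *Pax1* and 0 of *Kcnj16*, where WT3 held 6 of *Pax1* and MT1301 held 2 of *Kcnj16*. *Fcgbp* (6.67 CPM) and *Gata3* (2.02) were near the levels in the other mice (6.18 to 14.3 and 2.25 to 3.61). Basal4, the other cluster low in *Nkx2-1*, held 1048 cells of WT1 (36.9%), 2 of WT2, 167 of WT3, 1 of MT1301, 118 of MT1306 and 29 of MT1383. Together, the clusters low in *Nkx2-1* made up 46.1% of WT1, 0.0413% of WT2, 7.33% of WT3, 0.893% of MT1301, 8.83% of MT1306 and 11.3% of MT1383.

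**Figure D4:**
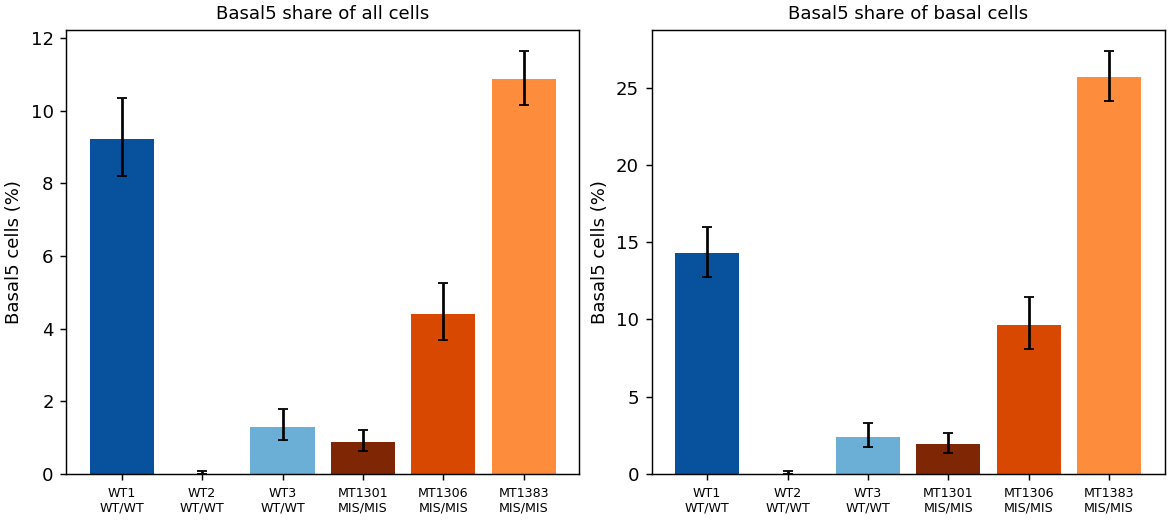
Share of Basal5 among all cells (left) and among basal cells (right) of each mouse, in percent, with bars from 0 and 95% Wilson intervals that cover counting error only. WT1 (9.22% of all cells) and MT1383 (10.9%) stand above the other mice, and WT2 has no Basal5 cell.

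The genotypes were compared within Basal5 over 2 *WT/WT* mice (WT1 and WT3) and 3 *MIS/MIS* mice, since WT2 gave no cells. By limma with voom weights and Benjamini-Hochberg adjusted p-values, 0 of 10544 genes passed an adjusted p under 0.05 (0% of the genes tested), and 913 had an unadjusted p under 0.05. The lowest adjusted p was 0.0609. The values of the genotypes did not overlap for 2209 genes, 21.0% of those tested. With 2 mice against 3, many genes separate in this way without any genotype effect, so a lack of overlap is not read as a difference. *Wdfy1*, which encodes an endosomal adaptor protein, was at 21.0 and 22.8 CPM in the *WT/WT* mice and at 57.7, 71.8 and 87.0 in the *MIS/MIS* mice (log2 difference 1.83, SE 0.18, limma adjusted p = 0.0609). *Dlk2*, a membrane protein related to the Notch ligands and a basal marker, was at 4.27 and 6.69 CPM against 16.0, 18.8 and 21.2 (2.13, SE 0.22, limma adjusted p = 0.0609). *Dapl1* differed by 1.36 on the log2 scale (limma adjusted p = 0.192). On the other side stood *S100a3*, at 36.0 and 30.1 CPM in *WT/WT* against 17.1, 14.8 and 15.2 in *MIS/MIS* mice (log2 difference -1.19, limma adjusted p = 0.118), *Hopx* (-0.88) and *Chac1* (-1.75, limma adjusted p = 0.192 for both). *Dnaaf5* itself was low in these non-ciliated cells, at 4.36 and 3.35 CPM in *WT/WT* and 6.42, 6.03 and 6.74 in *MIS/MIS* mice (log2 difference 0.60, SE 0.24, limma adjusted p = 0.532). A missense change need not alter the level of the transcript, so *Dnaaf5* does not check the labels.

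None of the 5 markers passed the test between genotypes. *Kcnj16* had the largest difference, with both *WT/WT* mice above all *MIS/MIS* mice (log2 difference -1.32, SE 0.24, limma adjusted p = 0.234). *Fcgbp* differed by -0.61 (limma adjusted p = 0.479), *Gata3* by 0.40 (0.525) and *Cyp4a12a* by -0.42 (0.923). The difference of *Cyp4a12a* turned to 1.38 without WT1. *Pax1* differed by 0.02 with an SE of 1.00, since WT3 had no UMI of it. Of the 15 basal marker genes, 13 were higher in *MIS/MIS* Basal5 cells, where 5341 of all 10544 genes tested were. The median log2 difference was 1.14 against 0.003 over all genes tested, and 0 of the 15 passed the test. *Krt14* was at 60.4 and 129 CPM in *WT/WT* against 366, 175 and 186 in *MIS/MIS* mice (1.46, limma adjusted p = 0.345), and *Trp63* at 13.9 and 24.8 against 51.3, 36.4 and 36.4 (1.28, limma adjusted p = 0.234). WT1 was the lowest mouse for both, and without it the median of the list dropped to 0.50. At 5000 UMIs per cell it was 0.59. The mucus layer genes stood on the other side, with 2 of 9 above 0 and a median of -0.61. This too depended on WT1, without which 4 of 10 were above 0 and the median was -0.21.

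In the other basal cells, here pooled over clusters in each mouse, *Krt14* had the opposite order. It was at 846 and 1437 CPM in *WT/WT* against 554, 464 and 476 in *MIS/MIS* mice. These cells were of different clusters in each mouse. Basal4, with 1639 CPM of *Krt14*, gave 1048 of 1572 other basal cells in WT1 and 1 of 1784 in MT1301. In Basal2 alone, the *Krt14* levels were 176.7 and 402.3 CPM against 356.5, 271.0 and 162.4, and the genotypes overlapped. The difference of the genotype differences between Basal5 and the other basal cells was 2.58 for *Krt14* on the log2 scale (SE 0.26, limma adjusted p = 0.14, the lowest of that test). Against Basal2 alone it was 1.48 (SE 0.22, limma adjusted p = 0.531), and the lowest adjusted p was then 0.111 for *Cyp2a5*. In all, 0 of 10544 genes passed it (0%), with 901 at an unadjusted p under 0.05. It passed for 1 gene (*Lgr6*) without WT1 and for 4 genes without WT3. *Wdfy1* was at nearly the same level in Basal5 and in the other basal cells of each mouse, and its difference of differences was -0.18 (SE 0.15).

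**Figure D5:**
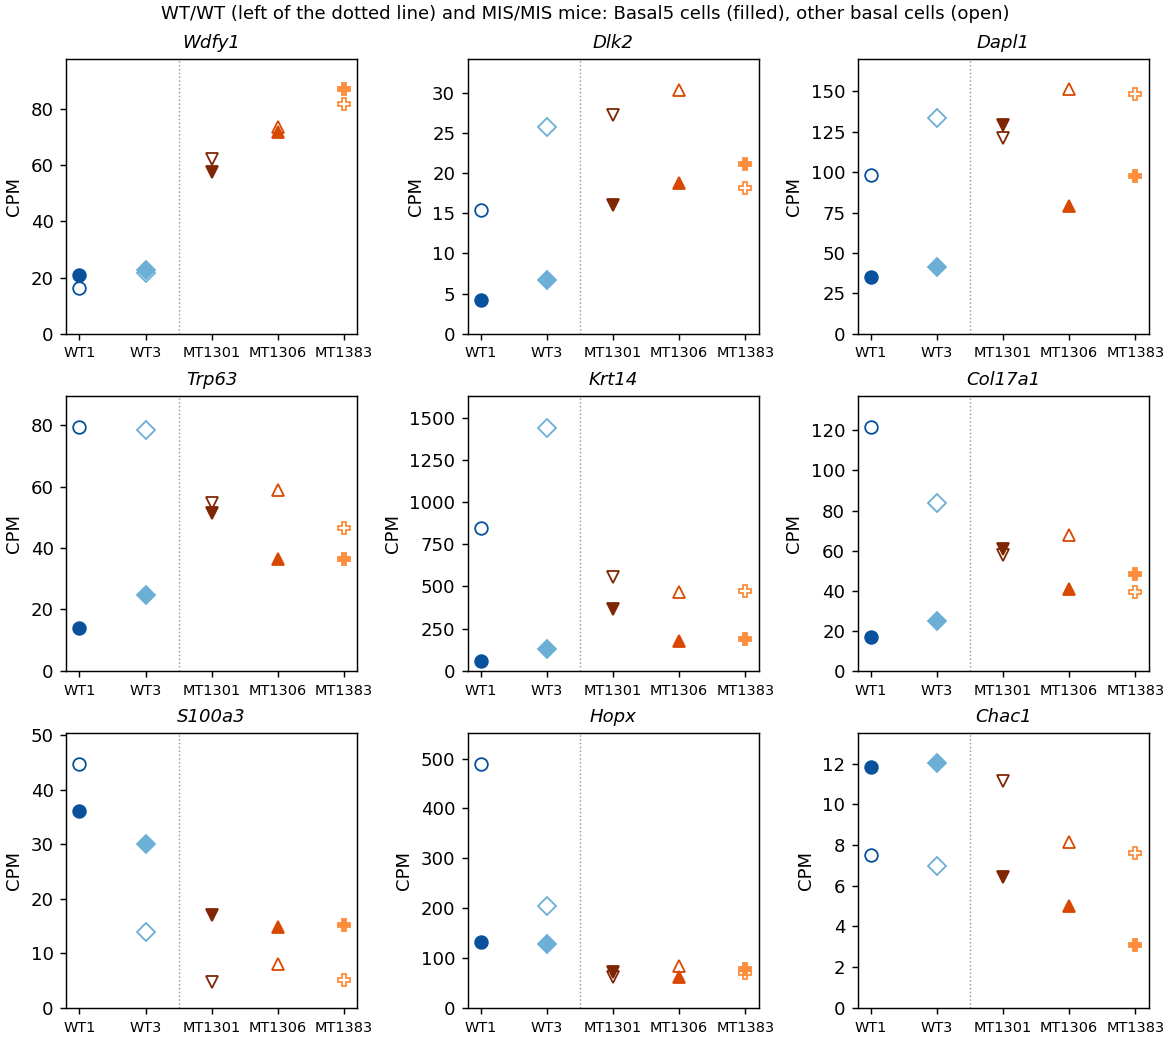
Level (CPM) of 9 genes in Basal5 (filled symbols) and in the other basal cells (open symbols) of the 5 mice, with WT/WT left and MIS/MIS right of the dotted line. *Krt14* lies lower in WT/WT than in MIS/MIS mice in Basal5 and higher in the other basal cells, whereas *Wdfy1* follows the genotype in both.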

How the data were processed

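The authors aligned the 3′ reads of each library and counted UMIs with Cell Ranger on mm10 (version 7.1.0 per the submitters' processing notes), stated filters in Seurat on numbers of genes (above 7500 or below 2500) and mitochondrial share (above 25%), clustered the cells and named the clusters by hand. The deposited table still held 655 cells with more than 7500 genes, so that limit was not applied to it, and 0 cells beyond either of the other limits. The authors deposited the unscaled UMI counts of all genes in each cell and a table of cells with total UMIs, genes, mitochondrial percent and cluster names. All count values were whole, and their sum per cell matched the deposited total. The MIS/MIS mouse numbers match no sample title, so these mice were used as replicates of their genotype, and 0 columns lacked a mapped sample or genotype. Libraries came from separate animals.

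UMIs were summed per mouse and cluster, for clusters with at least 20 cells in a mouse, and scaled to CPM. Ratios between clusters used CPM + 1, and genes were compared from 10 CPM in Basal5 or in the mean of the other basal clusters. Ionocytes had too few cells in any mouse and were left out of the ranking. The genotype test was limma 3.58.1 (R 4.3.3) with voom and default empirical Bayes moderation on sums with TMM factors (trims 0.3 and 0.05), over genes that reached 10 counts, at median library size, in as many mice as the smaller group has, with a total of at least 15. The test of the difference of differences used log2 CPM with a prior count of 2. P-values were adjusted by Benjamini-Hochberg over all genes tested, with a threshold of 0.05. The steps were tested on simulated data. Shares were compared with exact permutation tests. The other steps used Python 3.11.15 (pandas 2.3.3, numpy 2.4.6, matplotlib 3.10.9, scipy 1.17.1). Gene positions come from GENCODE on GRCm38. Promoters come from RefSeq on GRCm38.p6 with 1 chromosome left out, and 22 of the 34 genes higher in Basal5 had an entry there.

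Named genes were the 5 markers, the 25 genes with the highest ratio to the next cluster, the 10 lowest against the other basal clusters (from 20 CPM there), the 10 transcription factors with the highest ratio (from 5 CPM), the 3 genes with the lowest p per direction, *Dnaaf5*, *Wdfy1*, and examples from gene lists. Some genes among the 34, and the factors that were lower, were added after their values were seen. The cells, markers and lists were chosen with earlier results of these data known. Alternatives covered normalization, filters, the test, thinning to 5000 UMIs, the stated cell filters, a minimum of 50 cells, and leaving out each mouse.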

Additional observations from a re-analysis of the deposited data

How the results depend on the processing

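In the comparison of genotypes in Basal5, 1 gene passed without a filter on low counts (*Wdfy1*, log2 difference 1.84, limma adjusted p = 0.0235), and 1 after thinning to 5000 UMIs per cell (*Gm47283*). With each mouse left out in turn it was 0 to 0 genes, and the test of the difference of differences gave 0 to 4. The difference of *Cyp4a12a* turned to 1.38 without WT1 (range over mice left out -1.54 to 1.38). That of *Pax1* turned to -0.64 with at least 50 cells, which leaves 1 WT/WT mouse that is assumed to vary like the others, to -0.44 after thinning, to -0.72 without WT3 and to -0.81 without MT1383 (range -0.81 to 6.05). Of 150 values for 12 named genes, 145 kept their direction. The difference in the share of all cells ranged from -0.865 to 4.73 percentage points, negative without MT1383, and that in the share of basal cells from 0.228 to 12.1. Genes at least 2-fold above and below the other basal clusters numbered 58 and 83 against their median and 5 and 1 against each of them, both chosen after seeing the data, and 34 to 51 and 202 to 247 with a mouse left out. The cause of these changes was not tested. All 40 values of marker levels under other settings stayed within 1 SD, which is wide for some: the mean of *Cyp4a12a* was 93.9 CPM without WT1 and that of *Pax1* 28.8 CPM in pooled cells. Depth limits *Pax1* and *Kcnj16*, of which MT1301 held 10 and 8 UMIs and WT3 0 and 26. No paired analysis was possible because the columns carry no number that pairs mice across genotypes.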
